A study of Mus musculus with 4 samples.

Results

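The extracellular matrix protein fibronectin and 9 genes for matricellular proteins or the matrix regulator Timp1 were followed in 3 mouse cell lines. The 10 genes were chosen by name (Fn1, Thbs1, Thbs2, Sparc, Spp1, Tnc, Ccn1, Ccn2, Postn and Timp1), out of 33565 genes counted, and all of them were found under 1 identifier each. The lines were Neuro-2a (N2a, a neuroblastoma line), NIH/3T3 (an embryonic fibroblast line) and the mouse embryonic stem cell (mESC) line E14TG2a. They were grown separately and carried through 1 CapSeq experiment, a split-pool single-cell RNA-seq method in which the first barcode (BC1) names the line and the lines are then pooled and sequenced together. N2a and NIH/3T3 cells were grown in medium with 10% fetal bovine serum. The mESCs were grown on gelatin in 15% serum with LIF, 3 µM of the GSK3 inhibitor CHIR99021 and 1 µM of the MEK inhibitor PD0325901, so line and medium cannot be told apart. N2a took plate columns 1 to 4 of the first barcoding round, NIH/3T3 columns 5 to 8 and mESCs columns 9 to 12.

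Fibronectin is a secreted glycoprotein that cells assemble into fibrils and grip through integrins. Matricellular proteins, such as thrombospondins, SPARC, osteopontin, tenascin C, periostin and the CCN proteins, are secreted into the matrix but mainly adjust adhesion, growth factor activity and matrix assembly rather than bear load. Timp1 inhibits matrix metalloproteinases, the enzymes that cut matrix proteins. In fibroblasts many of these genes respond to serum, TGF-beta and mechanical tension, and Ccn1 and Ccn2 are textbook targets of the Hippo pathway coactivators YAP and TAZ, which reach DNA through TEAD factors.

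Cells were barcodes with at least 1000 UMIs (unique molecular identifiers, each counting 1 captured RNA molecule) and at most 20% mitochondrial UMIs. This left 2323 N2a, 2037 NIH/3T3 and 2137 mESC barcodes with medians of 6185, 4863 and 4803 UMIs, and 11697865 to 17955221 summed UMIs per line. No barcode was found in more than 1 line, which the design fixes, since barcodes include BC1 and each line has its own BC1 sequences. A level is the gene's UMIs summed over the cells of a line, per 1000000 UMIs of those cells (CPM), with an exact Poisson 95% interval. A positive cell holds at least 1 UMI of the gene, and shares carry exact binomial 95% intervals. Each line is 1 culture in 1 pooled library, with no replicate, so there is no test between lines, and intervals cover counting error only. CPM is not scaled by gene length, so values are compared between lines within a gene. The lines matched their markers. NIH/3T3 held Col1a2 at 460.6 CPM and Prrx1 at 622.4 CPM, N2a held Hand2 at 404.2 CPM, and mESCs held Zfp42 at 1318 CPM and Nanog at 571.7 CPM. The fibroblast marker Pdgfrb was less specific, at 21.9 CPM in NIH/3T3 and 7.52 and 7.3 CPM in N2a and mESCs.

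RNA of one line was also found at a low level in cells of the others. For 9 reference genes that mark 1 line, the level in another line was 0.0592% to 0.624% of the level in their own (median 0.18%, 18 pairs of gene and line), and 0.0592% to 0.324% for the 6 genes measured in N2a. A member at or below this range is read here as background.

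Promoter sequence is shown for 3 members with the TEAD motif CATTCC in the 250 bases before their start. Hippo pathway genes are set beside Ccn1 further on, but not beside Spp1 or Timp1. Capitals mark CATTCC or its complement GGAATG. The sequences precede the start of each gene's canonical transcript in GENCODE M39, on GRCm39, and are written 5′ to 3′ on the strand of the gene. They lie at chr3:145355739-145355988 (Ccn1, minus strand), chr5:104581915-104582164 (Spp1, plus strand) and chrX:20736101-20736350 (Timp1, plus strand).
Ccn1: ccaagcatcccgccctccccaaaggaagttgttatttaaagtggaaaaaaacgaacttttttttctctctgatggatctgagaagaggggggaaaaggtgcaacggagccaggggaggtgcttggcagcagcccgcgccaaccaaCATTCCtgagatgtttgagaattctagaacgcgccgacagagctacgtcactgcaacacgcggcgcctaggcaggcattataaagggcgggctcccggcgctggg
Spp1: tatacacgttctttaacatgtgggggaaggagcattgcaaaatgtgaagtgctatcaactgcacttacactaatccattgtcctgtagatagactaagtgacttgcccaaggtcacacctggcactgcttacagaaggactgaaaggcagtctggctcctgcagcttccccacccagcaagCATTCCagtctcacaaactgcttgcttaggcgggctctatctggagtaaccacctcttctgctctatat
Timp1: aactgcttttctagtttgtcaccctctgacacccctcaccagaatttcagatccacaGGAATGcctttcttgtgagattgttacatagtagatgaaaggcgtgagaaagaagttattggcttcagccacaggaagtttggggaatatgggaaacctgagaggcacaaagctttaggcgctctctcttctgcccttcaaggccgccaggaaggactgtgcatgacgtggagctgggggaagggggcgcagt
Ccn1 held 1 copy at bases 105 to 100 before the start, Spp1 1 copy at bases 69 to 64 and Timp1 1 copy on the complement strand at bases 193 to 188. At least 1 copy on either strand was found in 12.1% of all 21757 promoters. Ccn1 also held TATAAA, the TATA box, at bases 27 to 22, a motif in 11.9% of promoters, and Thbs2 held it on the complement strand at bases 122 to 117. Thbs1 held the AP-1 motif TGACTCA in 2 copies, at bases 141 to 135 on the complement strand and 60 to 54 on the plus strand, against at least 1 copy in 4.03% of promoters. The CArG box, the motif of SRF, was in none of the 10 members and in 1.4% of promoters. A match of letters is a description of the sequence and no evidence of binding.

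The members split the lines in a simple way. Of the 10, 7 reached 5 CPM in at least 1 line, namely Fn1, Thbs2, Sparc, Spp1, Ccn1, Ccn2 and Timp1, and in each of these 7 N2a was the lowest line. Among all 13000 genes that reached 5 CPM in a line, 30.4% were lowest in N2a. NIH/3T3 was the highest line for 5 members (Thbs2, Sparc, Ccn1, Ccn2 and Timp1; 32.5% of all genes), mESCs for 2 (Fn1 and Spp1; 33.3% of all genes) and N2a for 0 (34.2% of all genes). Ccn2 counts here under NIH/3T3, but its level there and in mESCs did not differ beyond counting error.

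A gene was called led by a line where its level was at least 4 times that in the higher of the other lines. This held for 1 member in NIH/3T3, Thbs2, against 5.95% of all genes. It held for 0 members in mESCs, against 8.88% of all genes, and for 0 in N2a, against 6.79%. Pair by pair, 6 of the 7 members were at least 4-fold higher in NIH/3T3 than in N2a (10.8% of all genes), the exception being Fn1, and 5 were so in mESCs over N2a (14.1% of all genes), namely Fn1, Spp1, Ccn1, Ccn2 and Timp1. Only Thbs2 was at least 4-fold higher in NIH/3T3 than in mESCs (11.3% of all genes).

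**Figure D1:**
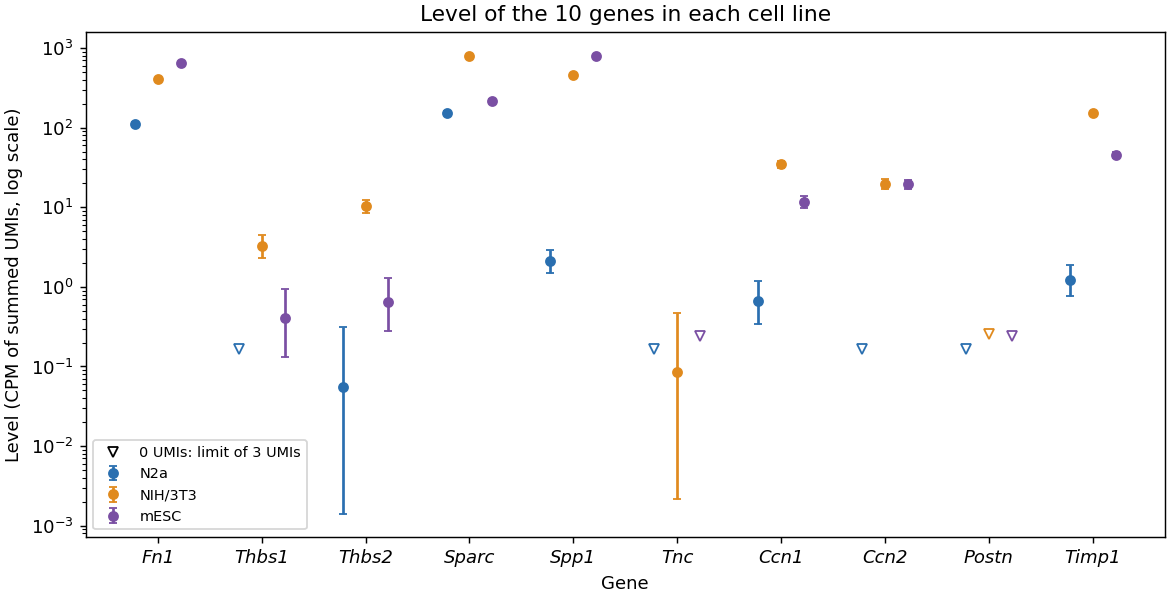
Level of each of the 10 genes in N2a, NIH/3T3 and mESC cells, as CPM of summed UMIs on a log axis. Points carry exact Poisson 95% intervals, and open triangles mark lines with 0 UMIs, drawn at the limit of 3 UMIs. Spp1 runs from 2.12 CPM in N2a to 794.6 CPM in mESCs, and Postn has triangles in all 3 lines.

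Fn1 encodes fibronectin (ENSMUSG00000026193, chr1:71624673-71692419, minus strand, 46 exons in the transcript used). It was at 112.9 CPM in N2a (108.1 to 118.0), 411.2 CPM in NIH/3T3 (399.6 to 423.0) and 641.9 CPM in mESCs (627.8 to 656.2). The stem cells thus held more Fn1 RNA than the fibroblasts, by 1.56-fold (1.51 to 1.62), and 5.68-fold that of N2a (5.41 to 5.97). Fn1 was not a gene that N2a lacked, since 43% of N2a cells were positive (41% to 45%), beside 74.4% (72.5% to 76.3%) of the NIH/3T3 and 86.1% (84.5% to 87.5%) of the mESC cells. N2a cells were the deeper ones. With every cell thinned to 1000 UMIs, the shares were 9.38%, 30.8% and 46.5%, in the same order of lines.

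Sparc encodes SPARC or osteonectin, a collagen-binding matricellular protein (ENSMUSG00000018593, chr11:55285317-55314067, minus strand). Its order was another one. NIH/3T3 held 799.1 CPM (783.0 to 815.5), mESCs 218.6 CPM (210.4 to 227.0) and N2a 155.0 CPM (149.3 to 160.9). NIH/3T3 was 3.66-fold above mESCs (3.5 to 3.82) and 5.16-fold above N2a (4.94 to 5.38), and mESCs were 1.41-fold above N2a (1.34 to 1.49). Positive cells made up 90.3% of NIH/3T3 (88.9% to 91.5%), 59.2% of mESCs (57.1% to 61.3%) and 53.9% of N2a (51.8% to 55.9%). Thinned to 1000 UMIs, these shares were 53.1%, 19.9% and 13.3%. Fn1 and Sparc were the 2 members found in a large part of all 3 lines.

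Spp1 encodes osteopontin, a secreted phosphoprotein bound by integrins and CD44 (ENSMUSG00000029304, chr5:104582165-104589235, plus strand). Its level was 794.6 CPM in mESCs (778.9 to 810.5) and 464.2 CPM in NIH/3T3 (451.9 to 476.7), a ratio of 1.71 (1.66 to 1.77). In N2a it was 2.12 CPM (1.5 to 2.9), from 38 UMIs in 38 cells. NIH/3T3 was 219.3-fold above N2a (159.6 to 310.3) and mESCs were 375.4-fold above it (273.3 to 530.9). The N2a level is 0.266% of that in mESCs, within the range of the reference genes, and is read as background. Positive cells were 85.3% of mESCs (83.7% to 86.8%), 71.5% of NIH/3T3 (69.5% to 73.5%) and 1.64% of N2a (1.16% to 2.24%), or 50.6%, 33% and 0.301% after thinning to 1000 UMIs. In barcodes under 100 UMIs, Spp1 was at 5.96 CPM in the N2a matrix (2.97 to 10.7), against 2.12 CPM in its cells.

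Timp1 encodes a secreted metalloproteinase inhibitor (ENSMUSG00000001131, chrX:20736316-20740976, plus strand). It lies inside Syn1 on the other strand. Timp1 was at 151.0 CPM in NIH/3T3 (144.0 to 158.2), 45.9 CPM in mESCs (42.2 to 49.9) and 1.23 CPM in N2a (0.768 to 1.86; 22 UMIs). NIH/3T3 was 3.29-fold above mESCs (2.99 to 3.62) and 123.2-fold above N2a (81.1 to 197.1). The N2a level was 0.812% of that in NIH/3T3, above the range of the reference genes in N2a. Syn1 itself was highest in N2a, at 40.5 CPM, and how the counts were assigned by strand is not stated, so the few N2a UMIs of Timp1 are uncertain. Positive cells made up 49% of NIH/3T3 (46.8% to 51.2%), 21.5% of mESCs (19.8% to 23.3%) and 0.904% of N2a (0.56% to 1.38%).

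The CCN proteins are secreted, cysteine-rich proteins that bind integrins. Ccn1 (ENSMUSG00000028195, chr3:145352720-145355738, minus strand) was at 34.7 CPM in NIH/3T3 (31.4 to 38.3; 406 UMIs), 11.8 CPM in mESCs (9.93 to 13.8; 145 UMIs) and 0.668 CPM in N2a (0.345 to 1.17; 12 UMIs). The fibroblasts were 2.95-fold above the stem cells (2.43 to 3.59) and 51.9-fold above N2a (29.4 to 101.3). The N2a level was 1.93% of that in NIH/3T3, above the range of the reference genes. Gm17501, a long noncoding RNA on the other strand over Ccn1, was highest in N2a at 6.01 CPM, so here too the N2a UMIs are uncertain.

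Ccn2, known as connective tissue growth factor (ENSMUSG00000019997, chr10:24471333-24474900, plus strand), differed from Ccn1 in the gap between NIH/3T3 and mESCs. It was at 19.7 CPM in NIH/3T3 (17.2 to 22.4; 230 UMIs) and 19.5 CPM in mESCs (17.1 to 22.1; 240 UMIs), a ratio of 1.01 (0.839 to 1.21), and no UMI was found in N2a. Gm15270, a long noncoding RNA on the other strand over Ccn2, was at 0.0557, 1.97 and 2.35 CPM in N2a, NIH/3T3 and mESCs, and its part in the Ccn2 counts was not tested. The Ccn2 levels of NIH/3T3 and mESCs were at least 116.6-fold above N2a, with 3 UMIs set as the limit for 0. This leaves out the counting error of the 2 higher levels. Ccn2-positive cells made up 7.56% of NIH/3T3 (6.45% to 8.79%) and 9.45% of mESCs (8.24% to 10.8%). For Ccn1 these shares were 14.6% (13.1% to 16.2%) and 5.76% (4.81% to 6.83%). At 0 of 2323 N2a cells, up to 0.129% of cells could hold a Ccn2 UMI.

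The thrombospondins are large calcium-binding glycoproteins that bind CD47, CD36 and latent TGF-beta. Thbs2 (ENSMUSG00000023885, chr17:14885761-14914528, minus strand) was at 10.3 CPM in NIH/3T3 (8.58 to 12.4; 121 UMIs), 0.649 CPM in mESCs (0.28 to 1.28; 8 UMIs) and 0.0557 CPM in N2a (1 UMI). NIH/3T3 was 15.9-fold above mESCs (7.83 to 37.7), and 185.7-fold above N2a with a counting interval of 32.7 to 7396. Among the members that reached 5 CPM, Thbs2 had the largest ratio of fibroblasts to stem cells, but 5.4% of NIH/3T3 cells were positive (4.46% to 6.47%).

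Thbs1 (ENSMUSG00000040152, chr2:117941974-117957616, plus strand) did not reach 5 CPM in any line. It was at 3.25 CPM in NIH/3T3 (2.3 to 4.46; 38 UMIs in 32 cells) and 0.406 CPM in mESCs (0.132 to 0.947; 5 UMIs), a ratio of 8.01 (3.15 to 26.1). N2a had 0 UMIs. The NIH/3T3 level was 19.4-fold above the N2a limit of 3 UMIs, a value that leaves out the counting error of the 38 UMIs.

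Tenascin C and periostin, which are abundant in healing and tumor stroma, were at the limit of detection. Tnc (ENSMUSG00000028364, chr4:63878014-63965443, minus strand) gave 1 UMI in NIH/3T3 and 0 UMIs in both other lines. Postn (ENSMUSG00000027750, chr3:54268501-54298471, plus strand) gave 0 UMIs in all 3 lines, which allows up to 0.167, 0.256 and 0.243 CPM in N2a, NIH/3T3 and mESCs, with 3 UMIs as the limit, and up to 0.129%, 0.147% and 0.14% of cells with a UMI. Cells that express the gene below the capture limit are not bounded by this. At this depth neither gene was detectable as expressed in the fibroblast line.

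Each line was spread over 32 BC1 sequences, with 33 to 102 cells each, which gives the spread within 1 culture. Each BC1 sequence holds other cells, so technical and cell-to-cell differences are not separated. Fn1 ranged from 71.9 to 151.9 CPM over the BC1 sequences of N2a (median 108.6), from 308.5 to 577.5 CPM in NIH/3T3 (median 398.3) and from 527.2 to 828.1 CPM in mESCs (median 630.4). The N2a range lay apart from both, while those of NIH/3T3 and mESCs overlapped, with 24 of 32 mESC values above every NIH/3T3 value. Sparc ranged from 612.8 to 933.7 CPM in NIH/3T3, above every value in mESCs (158.6 to 258.9 CPM) and N2a (117.8 to 220.5 CPM), and those of mESCs and N2a overlapped. For Spp1, 31 of 32 mESC values (627.4 to 946.3 CPM) were above every NIH/3T3 value (342.2 to 650.5 CPM), and no N2a value exceeded 6.52 CPM. Where computed, the variance of counts over BC1 sequences was 0.91 (Sparc in mESCs) to 3.37 (Spp1 in NIH/3T3) times that of counting error. For Fn1 it was 2.95 times in NIH/3T3 and 3.11 times in mESCs. Counting intervals can thus be narrower than the spread within a culture.

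Timp1 was the member whose 3 ranges were fully apart, at 93.1 to 239.0 CPM in NIH/3T3, 18.8 to 81.6 CPM in mESCs and 0 to 4.57 CPM in N2a. Ccn1 overlapped between NIH/3T3 (14.9 to 62.1 CPM) and mESCs (0 to 30.1 CPM), with 19 of 32 NIH/3T3 values above every mESC value. The Ccn2 ranges of both lines, 2.28 to 45.1 and 5.03 to 46.4 CPM, covered each other almost fully. Overlap of ranges, here and for Fn1, Sparc and Spp1 above, was examined for the members only. How often ranges lie apart among all genes was not tested, so separate ranges are a description of these members.

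**Figure D2:**
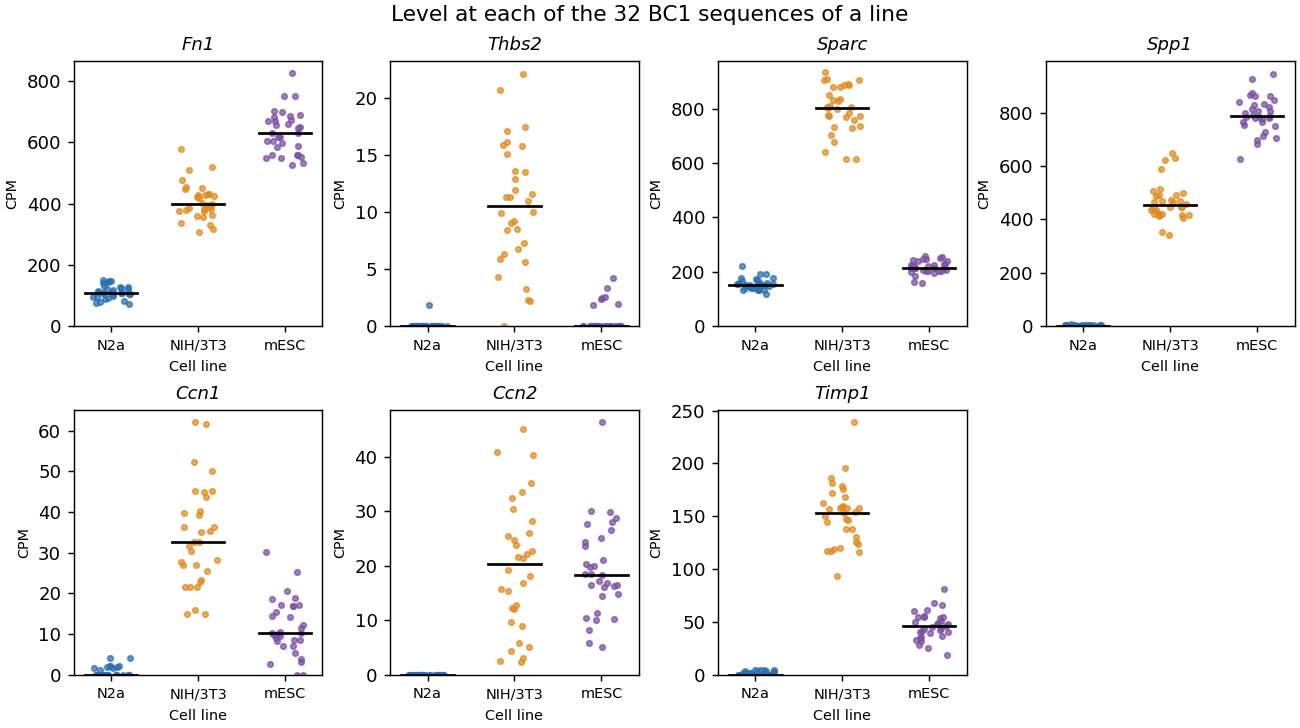
Level (CPM of summed UMIs, linear axes from 0) of the 7 members that reached 5 CPM, at each of the 32 BC1 sequences of N2a, NIH/3T3 and mESC cells. Points are BC1 sequences and bars are medians. Timp1 has 3 separate ranges, while Ccn2 covers 2.28 to 45.1 CPM in NIH/3T3 and 5.03 to 46.4 CPM in mESCs.

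Within a line, Spp1 and Fn1 were more unequal from cell to cell than most genes. With UMIs dealt to cells by their depth alone, 83.5% of NIH/3T3 cells would be Spp1-positive, and 71.5% were. In mESCs these values were 92.5% and 85.3%. Single cells held up to 37 Spp1 UMIs in NIH/3T3 and 35 in mESCs. The tenth of NIH/3T3 cells with the most Spp1 UMIs held 42.2% of them, beside 41.2% for Timp1 and 37.6% for Fn1. These shares are not adjusted for depth or for the level of the gene. After thinning to 1000 UMIs per cell, the variance of Spp1 counts over NIH/3T3 cells was 1.3 times their mean, above 99.3% of genes with at least 5 CPM, for which the median was 1.02. In mESCs it was 1.15 times the mean (93.8% of genes below).

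Fn1 had a variance of 1.17 times the mean in NIH/3T3 (97.1% of genes below), 1.13 in mESCs (91.6%) and 1.12 in N2a (93.9%). Sparc had 1.1 in NIH/3T3 (91.4%), and Ccn2 had 1.17 (97%). Timp1 was close to the median in NIH/3T3 at 1.05 (74.2%) and below it in mESCs at 0.956 (0.372%), which at 2000 UMIs per cell was 1.02 (28%). A variance rises with abundance, and these percentiles are over all genes of at least 5 CPM, not over genes of like level.

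**Figure D3:**
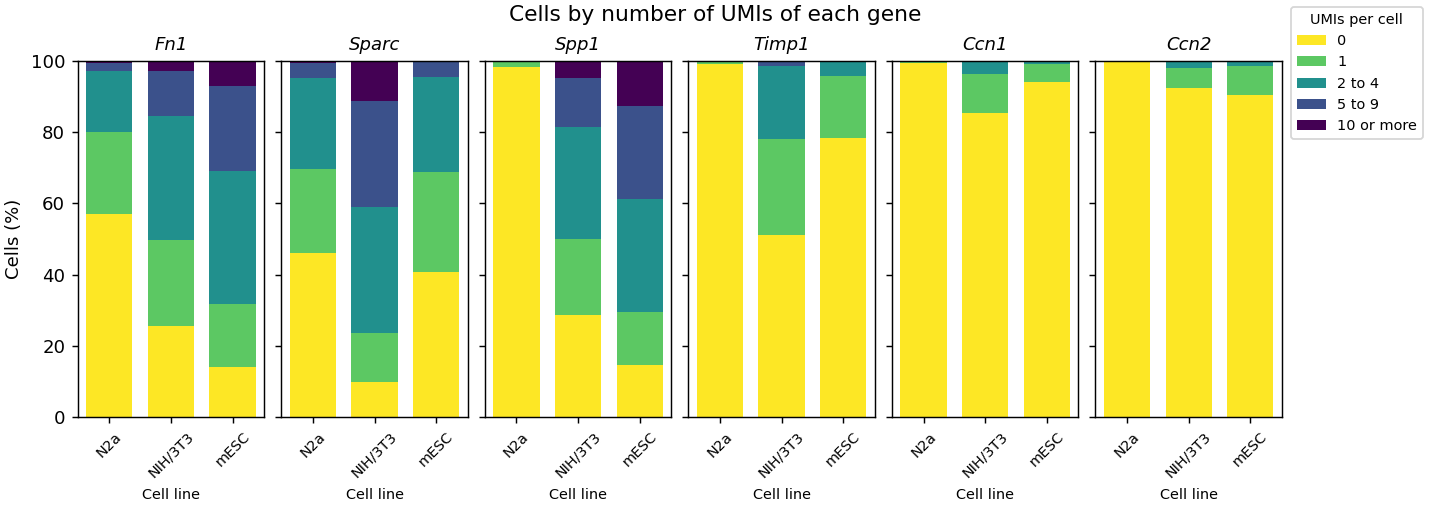
Share of cells (%) with 0, 1, 2 to 4, 5 to 9 and 10 or more UMIs of Fn1, Sparc, Spp1, Timp1, Ccn1 and Ccn2 in N2a, NIH/3T3 and mESC cells, without thinning. In Spp1, 12.7% of mESCs and 4.76% of NIH/3T3 cells hold 10 or more UMIs while no N2a cell holds more than 1.

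Correlations between members over cells were small. Over the pairs of Fn1, Sparc, Spp1, Ccn1 and Timp1 measured in a line, Pearson's r over thinned cells ran from -0.0465 (Spp1 and Timp1, NIH/3T3) to 0.0548 (Spp1 and Ccn1, NIH/3T3). In counts this sparse, values of this size are no finding in either direction. The cells of a line share 1 library and the total they were thinned to.

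Of 7483 genes with at least 20 CPM in NIH/3T3, Spp1 was most like Dcn (r = 0.167), Cp (0.15) and Gsta4 (0.141) over 2037 thinned cells, where 99% of genes had an r under 0.0673. Dcn encodes the matrix proteoglycan decorin, Cp ceruloplasmin and Gsta4 a glutathione transferase. Among thinned NIH/3T3 cells, 51.3% of the 312 cells with a Dcn UMI also held Spp1 (45.6% to 57%), against 29.7% of the 1725 cells without (27.5% to 31.9%). Dcn was chosen by its correlation with Spp1 over these same cells. The higher share therefore follows from that choice, and the intervals do not account for it. Sparc was most like Timp3 (r = 0.111), another metalloproteinase inhibitor, in the same line, followed by Ank2 and Rpl6. For Timp1 in NIH/3T3 the leading genes were Rnf19a, Rab5b and Gtf2h5 (highest r = 0.0925). In mESCs they were Trip12, Pibf1 and Pawr for Fn1 (highest r = 0.0886) and Eif2s2, Calcoco2 and Gpx1 for Spp1 (highest r = 0.0996). On the log of counts scaled by each cell's depth, other genes led these last 3 lists. They were Zfpm2, Atp2b1 and Atrnl1 for Timp1 in NIH/3T3. In mESCs they were Ranbp17, Nr5a2 and Myo10 for Fn1 and Prdx1, Rps14 and Hspd1 for Spp1. These lists thus depended on the measure. How large the highest r of this many genes would be by chance was not tested. All are descriptions over cells of 1 library.

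Counted per cell, a median of 1 member was found in N2a cells and 3 in NIH/3T3 cells and mESCs. None of the 10 was found in 29.8% of N2a cells, 1.77% of NIH/3T3 cells and 2.34% of mESCs. At most 4 members were found in 1 N2a cell, 8 in 1 NIH/3T3 cell and 6 in 1 mESC. After thinning to 1000 UMIs, the mean number was 0.233, 1.38 and 1.24.

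Of 24 other matricellular genes listed, 9 reached 5 CPM, and 5 of these 9 were led by N2a (55.6%, against 6.79% of all genes). NIH/3T3 led 1 (11.1%, against 5.95%) and mESCs led 0 (against 8.88%). Fbln2, which encodes the basement membrane protein fibulin 2, was at 318.1 CPM in N2a (309.9 to 326.4), 32.9 in NIH/3T3 and 1.62 in mESCs. Spock1 and Spock2, proteoglycans related to SPARC, had N2a levels of 89.8 CPM (85.5 to 94.3) and 103.4 CPM (98.8 to 108.2), and neither exceeded 7.55 CPM in the other lines. Sparcl1, the closest relative of Sparc, was at 23.4 CPM in N2a (21.3 to 25.8), beside 1.45 and 1.06 CPM in NIH/3T3 and mESCs. Fbln1, named after its values were seen, was at 259.6 CPM in N2a (252.2 to 267.2). In NIH/3T3, Ccn4 was at 44.9 CPM (41.1 to 48.9), with 0.111 CPM in N2a. Smoc1, a further SPARC-related gene, was highest in mESCs at 76.2 CPM (71.4 to 81.2), beside 48.3 CPM in N2a. Fbln5, named after its values were seen, was lowest in N2a at 1.89 CPM (1.31 to 2.65), beside 26 and 13.6 CPM in NIH/3T3 and mESCs. Of the SPARC relatives, Spock1, Spock2 and Sparcl1 were thus highest in the line where Sparc was lowest, while Smoc1 and Spock3 were highest in mESCs, the latter named after its values were seen and at 4.3 CPM (3.22 to 5.63).

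Receptors were spread over the lines. Of 17 listed, 15 reached 5 CPM, and 5 of these were lowest in N2a (33.3%, against 30.4% of all genes). NIH/3T3 was highest for 8, N2a for 4 and mESCs for 3, against 32.5%, 34.2% and 33.3% of all genes. Cd44, which binds osteopontin and hyaluronan, was at 356.2 CPM in NIH/3T3 (345.5 to 367.2), 0.891 CPM in N2a and 0.649 CPM in mESCs. Spp1 and Cd44 were therefore both high in the fibroblasts, and mESCs, the line with the most Spp1, were at the background for Cd44. Itgb1, the integrin subunit shared by many matrix receptors, was at 620.5 CPM in N2a (609.0 to 632.1), 641.9 CPM in NIH/3T3 (627.5 to 656.6) and 201.3 CPM in mESCs (193.5 to 209.4). Its partner in the classical fibronectin receptor, Itga5, named after its values were seen, was at 0.78 CPM in N2a (0.426 to 1.31), while NIH/3T3 held 74.2 CPM (69.3 to 79.3) and mESCs held 64.3 CPM (59.9 to 68.9). N2a held Itga8 at 138.8 CPM (133.4 to 144.4), another fibronectin-binding subunit, against at most 3.65 CPM elsewhere, and Itgb6 at 45.8 CPM (42.8 to 49.1). Itgb8 was at 47.9 CPM in NIH/3T3 (44 to 52) and Itga9, which binds tenascin C and osteopontin, at 26.8 CPM in mESCs (24 to 29.8).

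Among metalloproteinases and the other TIMPs, 14 of 21 reached 5 CPM, and 7 of these 14 were led by NIH/3T3 (50%, against 5.95% of all genes). Timp1 was not led by NIH/3T3, while its relatives Timp2 and Timp3 were. Timp4, named after its values were seen, did not reach 5 CPM in any line and was at 3.9 CPM in N2a (3.04 to 4.93), with 0 UMIs elsewhere. Timp3 was at 291.6 CPM in NIH/3T3 (281.9 to 301.5), 5.28 CPM in mESCs and 1.23 CPM in N2a. Timp2 was at 418.5 CPM in NIH/3T3 (406.9 to 430.4), 40.9 CPM in N2a and 5.52 CPM in mESCs. In mESCs, therefore, Timp1 at 45.9 CPM was 30.4% of its NIH/3T3 level, with Timp2 at 5.52 CPM and Timp3 at 5.28 CPM. Mmp14, a membrane-bound collagenase, was at 81.3 CPM in NIH/3T3 (76.2 to 86.6), Adamts1 at 55.5 CPM (51.3 to 59.9) and Adamts5 at 30 CPM (26.9 to 33.3), each at most 7.47 CPM elsewhere. Adam10 was between 79.5 and 140.8 CPM and Adam17 between 65.4 and 91.8 CPM in all 3 lines.

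The Hippo and SRF list was read beside Ccn1 and Ccn2, and a link between them was not tested. Of 25 listed, 23 reached 5 CPM, and 13 of these 23 were lowest in N2a (56.5%, against 30.4% of all genes). NIH/3T3 was highest for 12, N2a for 6 and mESCs for 5, against 32.5%, 34.2% and 33.3% of all genes. The coactivators themselves, named after their values were seen like the TEAD and angiomotin genes that follow, were near 0 in N2a. Yap1 was at 0.947 CPM in N2a (0.552 to 1.52), 77 CPM in NIH/3T3 (72.1 to 82.2) and 146.1 CPM in mESCs (139.4 to 153.0). Wwtr1, which encodes TAZ, was at 2.23 CPM (1.59 to 3.03), 203.2 CPM (195.1 to 211.5) and 106.3 CPM (100.6 to 112.2) in the same order.

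Tead4 was at 0.891, 101.2 and 54.6 CPM, Amotl1 at 0.501, 66.9 and 62.3 CPM, and Amotl2 at 0.334, 75.4 and 90.3 CPM in N2a, NIH/3T3 and mESCs. Tead1 was not low in N2a, at 278.5 CPM (270.8 to 286.3), beside 318.3 and 686.8 CPM in NIH/3T3 and mESCs. Ankrd1, a further YAP target, was at 71.6 CPM in NIH/3T3 (66.9 to 76.7) but at 0.162 CPM in mESCs and 0.0557 CPM in N2a, so it did not share the mESC level of Ccn2. Fosl1 (187.8 CPM; 180.0 to 195.8) and Axl (272.4 CPM; 263.1 to 282.1) were also led by NIH/3T3, and Vcl was at 320.8 CPM there and 119.3 CPM in N2a. Egr1 was led by N2a, at 202.4 CPM (195.9 to 209.1), against 30.9 and 6.09 CPM in NIH/3T3 and mESCs, and Fos was at 38, 12.1 and 4.87 CPM in the same order of lines, both being immediate early genes. Jun, named after its values were seen, was highest in NIH/3T3 at 231.7 CPM (223.0 to 240.6), beside 122.0 CPM in N2a and 12.4 CPM in mESCs. Besides Egr1 and Fos, Junb (59.4 CPM), Fosl2 (36.1 CPM), Srf (12.6 CPM) and Tead3 (5.01 CPM) were highest in N2a. These too were named after their values were seen.

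**Figure D4:**
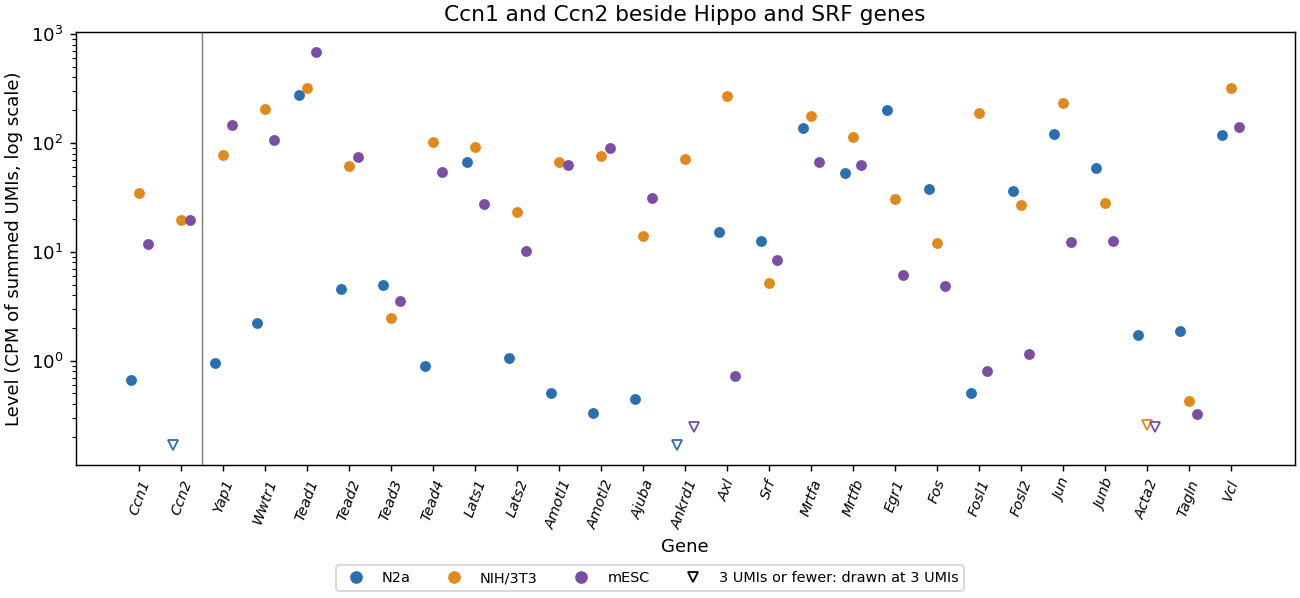
Level (CPM of summed UMIs, log axis) of Ccn1 and Ccn2, left of the line, and of the 25 genes of the Hippo and SRF list in N2a, NIH/3T3 and mESC cells. Open triangles mark sums of 3 UMIs or fewer, drawn at 3 UMIs. Yap1, Wwtr1, Tead4, Amotl1, Amotl2 and Ajuba lie lower in N2a than in both other lines, as Ccn1 and Ccn2 do. Tead1 is at 278.5 CPM or more in all 3, and Egr1, Fos, Junb, Fosl2, Srf and Tead3 are highest in N2a. A link of these genes to Ccn1 or Ccn2 was not tested.

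In the TGF-beta list, 15 of 17 genes reached 5 CPM, with 5 led by NIH/3T3 (33.3%, against 5.95% of all genes). N2a led 1 (6.67%, against 6.79%) and mESCs led 1 (6.67%, against 8.88%), and 3 were lowest in N2a (20%, against 30.4%). Tgfb2 was at 253.5 CPM in N2a (246.2 to 260.9) against at most 16.3 CPM elsewhere, and Tgfb3 at 27.1 CPM in NIH/3T3 (24.2 to 30.3) against at most 0.613 CPM. The receptor Tgfbr2 was at 64.5 CPM in NIH/3T3 (60 to 69.3), 5.68 CPM in mESCs and 0.167 CPM in N2a, and Tgfbr3 at 146.9 CPM in NIH/3T3 (140.1 to 154.1). The inhibitor Smad7 was led by mESCs at 158.7 CPM (151.8 to 165.9).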

How the data were processed

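CapSeq single-cell RNA-seq was carried out on N2a, NIH/3T3 and E14TG2a mESC cells, which were pooled after the first barcode and sequenced as 1 library. The authors demultiplexed reads by BC1, trimmed them, aligned them to GRCm39 with STARsolo and deposited raw UMI counts that were not normalized, for every barcode. The counting mode and strand setting are not given in the sources used here. Barcodes of 1000 UMIs or more were kept if 20% or less of these were mitochondrial, which removed 7 to 18 barcodes per line for mitochondrial share and left 86.6% to 88.8% of UMIs. No doublets were removed. Summed counts were scaled to CPM. Exact Poisson and binomial intervals (level 95%), conditional binomial intervals for ratios, and thinning of cells to 1000 UMIs were computed with Python 3.11.15, numpy 2.4.6, scipy 1.17.1 and pandas 2.3.3, and tested on simulated data. Cells under 2000 UMIs (253 N2a, 262 NIH/3T3 and 276 mESC) were left out when thinning to 2000. A sum under 3 UMIs was set to 3 for calls of 4-fold. The median unthinned depth was higher in N2a. There was no test between lines, since each is 1 sample. Gene positions came from the GENCODE M39 annotation, in which 32953 of 33565 identifiers were found. Promoter sequence was taken before the start of each gene's canonical transcript in the same annotation. The 10 genes, the gene lists and the tests were chosen with earlier results of these data known, and gene lists support nothing by themselves. From each list, up to 5 genes of at least 20 CPM were named by the largest ratio of the highest to the next line. The highest gene in each line was named too. For each member of at least 50 CPM, the rule named the 3 genes of highest correlation in its highest line. Spp1 and Fn1 in NIH/3T3, which is not their highest line, were added outside this rule. Protein sequences were not analysed here. One promoter and one gene of the TGF-beta list are not reported here.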

Additional observations from a re-analysis of the deposited data

How the results depend on the processing

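With 1 sample per line, no value has a replicate and all intervals cover counting error only. No paired analysis was possible because each line is 1 sample. The counts of members led by NIH/3T3 (1), mESCs (0) and N2a (0) were the same with cells called by STARsolo's default rule, with at least 2000 or 500 UMIs, at most 10% mitochondrial UMIs, without the 5% of cells with the most UMIs, from the pooled matrix, by the mean of per-cell CPM, with totals that leave out mitochondrial and ribosomal genes, over all barcodes and at 8-fold. At 2-fold, NIH/3T3 led 4 members (Thbs2, Sparc, Ccn1 and Timp1), by the construction of the rule. The 7 ratios between NIH/3T3 and mESCs moved by less than their counting intervals in each of 9 alternatives. The Ccn2 ratio of NIH/3T3 to mESCs ran from 0.973 over all barcodes to 1.05, so its direction is not settled. Totals without mitochondrial and ribosomal genes raised every level above 0, by construction, and put 12 of 30 outside their counting interval. Shares of positive cells depend on depth, and 22 of 30 left their counting interval under thinning. Thinned to 2000 UMIs, the ratio of variance to mean was 1.58 in place of 1.17 for Fn1 and 1.6 in place of 1.3 for Spp1 in NIH/3T3, and 2 of 15 values changed side of the median of all genes (Ccn1 and Ccn2 in mESCs). On log scaled counts Sparc and Timp1 in NIH/3T3 had an r of 0.132 and Sparc and Spp1 in mESCs 0.125. Depth limits Thbs1, Tnc and Postn, with at most 38 UMIs in a line.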

Other observations

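Likeness to Spp1 in NIH/3T3 was similar on log scaled counts, where Dcn (r = 0.306), Gsta4 (0.294) and Dclk1 (0.287) led. Cells with a Cp UMI were Spp1-positive in 54.1% of 172 cells after thinning (46.3% to 61.7%), against 31% of 1865 cells without. For Sparc in NIH/3T3 on that scale, Cst3 (r = 0.295) and Timp3 (0.29) led, and for Fn1 the basement membrane collagens Col4a6 (0.206) and Col4a5 (0.203). For Fn1 in NIH/3T3, thinned counts gave Virma, Klc1 and Chst11 as the leading genes instead. The genes of this paragraph were named from their correlations on the same cells, so the higher share with Cp follows from that choice.

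Between the 25% of cells with the most and the fewest UMIs, the levels of Fn1, Sparc, Spp1 and Timp1 differed by 0.94-fold to 1.3-fold. Fn1 in N2a was at 95.4 CPM in the shallowest cells (79.2 to 113.9) and 124.2 CPM in the deepest (117.1 to 131.6), and Spp1 in mESCs at 672.0 CPM (623.1 to 723.7) and 806.3 CPM (783.9 to 829.3).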
